A study of Mus musculus with 12 samples.

Results

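Igf2, H19 and Igf1 were followed in RNA from c-Kit(+) cells of the mouse heart before and after myocardial infarction (MI). The 3 genes were taken by their symbols from the authors' tables of 15223 genes, and all 3 were listed in every one of the 11 c-Kit libraries. The genes were chosen by measured values, the normalized counts of Igf2 and H19, which were lower after MI in these same libraries. Their levels against the pre-MI libraries are therefore a description without a test, while the contrasts among the libraries taken after MI were tested.

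All mice were C57BL/6 c-KitCreERT2/mTeG, a line in which an inducible Cre named for c-Kit switches on eGFP. They were 8 weeks old and had daily tamoxifen (0.5 mg, over 14 days), so every group carries the same alleles and the same induction. Cells were taken 1 day before MI (pre-MI, n = 3), 1 day after MI (n = 2), and 12 days after MI from mice given vehicle (n = 3) or Sfrp2 (n = 3), a secreted protein that binds Wnt ligands, with the treatment given 2 days after MI. The day 1 libraries are called vehicle in the labels although they precede the stated treatment day, and the later time point, 12 days by its label, appears as 14 in the column names of the tables. Cardiomyocytes of sham mice of the same line gave 1 library (n = 1), which enters no test. Whether each library stands for its own animal is not stated. A p-value here therefore measures spread among libraries, which may be technical.

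Igf2 encodes insulin-like growth factor 2, a growth factor made mainly in the embryo and placenta. H19 is a long noncoding RNA that shares its chromosomal neighbourhood and enhancers with Igf2. The pair is imprinted: a control region between them, bound by CTCF on the maternal copy, leads to Igf2 being read from the paternal chromosome and H19 from the maternal one, and both are strongly reduced after birth in most mouse tissues. Igf1 encodes the related ligand of postnatal growth. Both ligands signal through the receptor Igf1r, while Igf2r takes up Igf2 for breakdown, and secreted binding proteins hold the ligands in the matrix and circulation.

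In the GRCm38 build, H19 (ENSMUSG00000000031, a lincRNA) lies on the minus strand at chr7:142575529-142578143. Igf2 (ENSMUSG00000048583) lies on the same strand at chr7:142650766-142666816, and the annotated starts of the pair are 88.67 kb apart. Igf1 (ENSMUSG00000020053) is unlinked, on the plus strand at chr10:87858265-87937042. The imprinted pair also holds microRNAs. Mir675 lies at chr7:142577064-142577147 on the minus strand, and its hairpin was found whole in 3 of the 7 annotated H19 transcripts. Mir483 lies at chr7:142654924-142654996 on the minus strand, inside Igf2. These tables measure the host genes, not the mature microRNAs. The mature forms from RefSeq (GRCm38.p6) are shown because H19 RNA can hold the Mir675 hairpin and Mir483 lies inside Igf2. Whether Igf2 transcripts keep the Mir483 hairpin was not checked, so the Igf2 count may not cover it. Capitals mark the seed, bases 2 to 8. No seed is shared between the arms.
mmu-miR-675-5p: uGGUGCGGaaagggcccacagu
mmu-miR-675-3p: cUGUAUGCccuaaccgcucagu
mmu-miR-483-5p: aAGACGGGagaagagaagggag
mmu-miR-483-3p: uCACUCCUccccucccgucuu
The Mir675 hairpin, with both mature arms in capitals, shows the part of H19 RNA that is cut out.
Mir675: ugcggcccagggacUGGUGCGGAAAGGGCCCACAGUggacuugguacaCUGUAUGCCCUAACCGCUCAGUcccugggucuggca

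Igf2 has 4 starts in the RefSeq promoter table (GRCm38.p6), each given as 250 bases before to 50 bases after the start, and the count per gene adds reads from all of them. The most distant and the closest to the coding part are shown because gene counts cannot separate them. Capitals mark GGGCGG, the core of an Sp1 site, searched on both strands. The distant promoter, chr7:142666767-142667066 on the minus strand, had 0 matches and a GC content of 52.3%. The close promoter, chr7:142657447-142657746 on the minus strand, had 2 matches and a GC content of 63.3%. Of all 32851 promoters of that length, 35.66% hold the motif. A match describes letters and does not show a bound site.
Igf2 distant promoter: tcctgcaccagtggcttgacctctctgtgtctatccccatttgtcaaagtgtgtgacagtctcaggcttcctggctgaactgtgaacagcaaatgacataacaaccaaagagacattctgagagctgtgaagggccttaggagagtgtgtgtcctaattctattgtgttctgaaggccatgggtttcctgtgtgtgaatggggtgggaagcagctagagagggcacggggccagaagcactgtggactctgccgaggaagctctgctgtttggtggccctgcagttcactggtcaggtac
Igf2 close promoter: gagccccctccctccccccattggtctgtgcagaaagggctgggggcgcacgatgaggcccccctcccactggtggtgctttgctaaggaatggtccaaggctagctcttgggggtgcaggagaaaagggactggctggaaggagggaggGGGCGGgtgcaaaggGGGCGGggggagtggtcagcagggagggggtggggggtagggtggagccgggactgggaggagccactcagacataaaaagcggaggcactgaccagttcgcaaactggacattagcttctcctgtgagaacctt

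Values are normalized counts, the authors' gene counts divided by a size factor, and dividing by each library's step gave back whole reads. The 12 libraries held 190259 to 3570993 reads of the listed genes. Mitochondrial rRNA took 82.6% to 86.7% of the reads in the pre-MI libraries and 2.01% in day 12 vehicle replicate 3. Reads outside mitochondrial genes numbered 97858 to 189984 in the pre-MI libraries and 192878 to 618599 in the later ones. Genes listed at 0 numbered 5157 to 6414 in the pre-MI libraries and 29 to 2314 in the later ones, and low genes listed at 0 before MI can only be equal or higher after it. The authors kept genes reaching 10 reads in some library, so a gene at 0 in every pre-MI library was listed through another library. A rise of such a gene follows in part from that filter. The median log2 difference from pre-MI over all genes was 0.70 for day 1, 1.00 for vehicle and 1.27 for Sfrp2. Over abundant genes (mean of 50 or more) these medians were -0.74, -1.65 and -1.83. The cell mix moved as well, and its part in the results below was not tested. The summed value of 14 endothelial markers was 4113 to 4330 before MI, 1243 and 1841 at day 1, 215.0 to 1680 at day 12 with vehicle and 372.2 to 971.1 with Sfrp2. The sum of 14 macrophage and monocyte markers was 18.2 to 30.3 before MI, with 5 to 7 of them at 0, and 175.8 to 1362 in the later libraries. The sum of 9 fibroblast markers was 140.0 to 206.2 before MI, 223.4 and 337.4 at day 1, 93.5 to 909.6 with vehicle and 345.3 to 378.2 with Sfrp2. The sum of 12 cardiomyocyte markers was 2598 to 4464 before MI, and 675.0 and 859.6 at day 1. At day 12 it was 349.7 to 787.2 with vehicle and 400.5 to 606.3 with Sfrp2. The sum of 9 smooth muscle and pericyte markers was 514.5 to 737.1 before MI, and 468.6 and 376.4 at day 1. At day 12 it was 144.0 to 304.4 with vehicle and 116.8 to 164.8 with Sfrp2. The library labelled cardiomyocytes goes against its label: the sum of 12 cardiomyocyte markers was 294.5 there, below every c-Kit library (349.7 to 4464). Kit itself was 17.98, 7.17 and 5.68 before MI, 5.65 and 3.44 on day 1, and thereafter 19.5, 8.52 and 33.7 (vehicle) or 6.34, 13.8 and 11.9 (Sfrp2).

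Igf2 was high in all 3 pre-MI libraries and low in all 8 libraries taken after MI. Its normalized counts were 125.8, 102.2 and 148.8 before MI, from 133, 57 and 131 reads. At day 1 they were 6.45 and 18.4, from 8 and 16 reads. At day 12 they were 20.2, 43.2 and 48.6 with vehicle, from 26, 71 and 26 reads. With Sfrp2 they were 20.4, 16.3 and 12.3, from 29, 26 and 30 reads. No library taken after MI reached the pre-MI range.

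The pre-MI mean of Igf2 was 125.6 ± 23.3 (SD, n = 3). It was 10.1 times the day 1 mean of 12.4 ± 8.42 (SD, n = 2), 3.36 times the vehicle mean of 37.4 ± 15.1 (SD, n = 3) and 7.69 times the Sfrp2 mean of 16.3 ± 4.08 (SD, n = 3). On the log2(value + 1) scale, the differences from pre-MI were -3.38 (SE 0.459), -1.80 (SE 0.487) and -2.88 (SE 0.290), in the same order. These 3 comparisons share the pre-MI libraries. Ranked by log2 difference among abundant genes (mean of 50 or more in the comparison), Igf2 was the lowest of 498 at day 1. With Sfrp2 it stood 40th from the lowest of 375, and with vehicle 197th of 457. The fall from pre-MI is also the rule by which Igf2 was picked, so these places describe its size only. For comparison, some genes were lower in every library of the group than in any pre-MI library. They made up 10.4% of all genes at day 1, 7.08% with vehicle and 11.5% with Sfrp2. All genes here include those at 0 in a pre-MI library, which could not be lower in this way.

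Scaled to reads outside mitochondrial genes, Igf2 again did not overlap between pre-MI and any later group. In CPM of those reads it was 582.5 to 723.0 before MI, 26.1 and 77.3 at day 1, 69.5 to 193.8 with vehicle and 48.5 to 91.3 with Sfrp2. In bulk RNA, fewer cells that express a gene and less RNA per cell cannot be told apart. Igf2 overlaps an antisense gene, Igf2as, and counting by strand is not stated, so reads of the pair cannot be told apart either. Igf2as held 0.946, 1.79 and 3.41 normalized counts before MI and 0.806 and 2.29 at day 1. At day 12 it held 7.01, 0.609 and 13.1 with vehicle, then 4.93, 3.77 and 6.95 with Sfrp2, and in every library after MI but vehicle replicate 2 it was larger relative to Igf2 than in any pre-MI library.

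**Figure D1:**
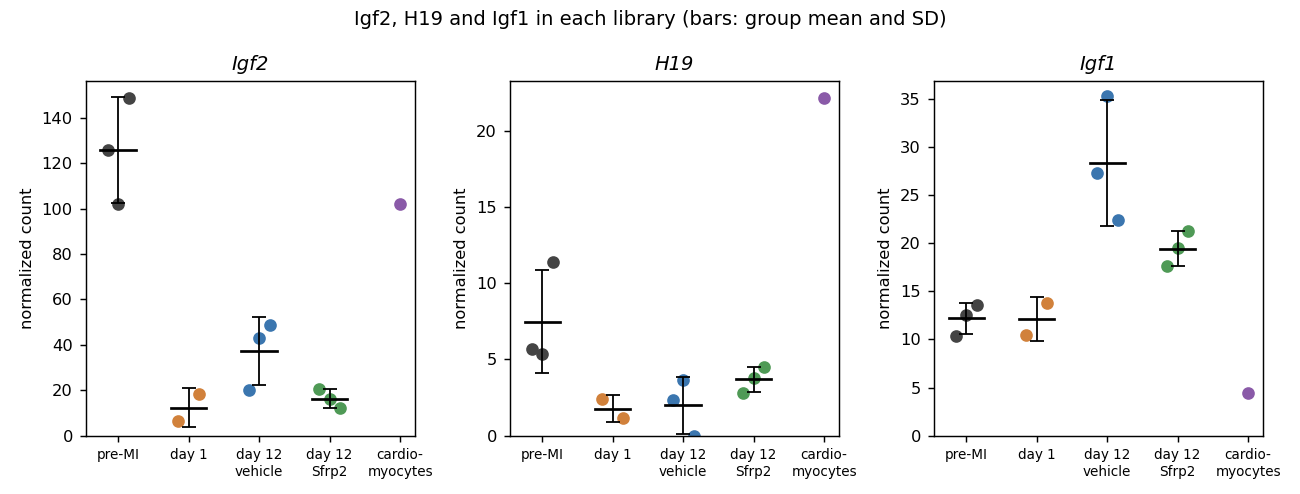
Normalized count (y axis, linear from 0) of Igf2, H19 and Igf1 in each library, by group; points are libraries and black bars the group mean with SD, with no bar for the single cardiomyocyte library. Igf2 lies between 102.2 and 148.8 before MI and at most at 48.6 in the c-Kit libraries after MI, whereas Igf1 is highest in the day 12 vehicle libraries.

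H19 was counted by few reads in every library, and it was lower after MI in the same direction as Igf2. Its normalized counts were 5.68, 5.38 and 11.4 before MI, from 6, 3 and 10 reads. At day 1 they were 2.42 and 1.15, from 3 reads and 1 read. At day 12 with vehicle they were 2.34, 3.65 and 0, from 3, 6 and 0 reads. A count of 0 in vehicle replicate 3 allows up to 5.61, the value of 3 reads there, which lies within the pre-MI range. With Sfrp2 they were 2.82, 3.77 and 4.497, from 4, 6 and 11 reads. Apart from that allowance, the 8 later libraries lay under the lowest pre-MI library.

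The pre-MI mean of H19 was 7.47 ± 3.37 (SD, n = 3), against 1.78 ± 0.899 (SD, n = 2) at day 1, 2.00 ± 1.85 (SD, n = 3) with vehicle and 3.69 ± 0.843 (SD, n = 3) with Sfrp2. The log2 differences from pre-MI were -1.58 (SE 0.508), -1.69 (SE 0.812) and -0.80 (SE 0.404). Pooling reads within groups gave ratios to pre-MI of 0.249 at day 1 (95% exact counting interval 0.0616 to 0.749), 0.341 with vehicle (0.136 to 0.792) and 0.505 with Sfrp2 (0.258 to 0.993). These intervals pool reads over libraries, so they cover counting error only and leave out the spread between libraries. Amplified reads carry no molecular identifier, so the counting error itself may be larger. H19 was picked for its falls from pre-MI, so the intervals are no test of them.

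The number of H19 reads beside Igf2 reads varied between libraries. Before MI there were 4.51, 5.26 and 7.63 H19 reads per 100 Igf2 reads. At day 1 there were 37.5 and 6.25, vehicle gave 11.5, 8.45 and 0, and Sfrp2 13.8, 23.1 and 36.7. The 3 Sfrp2 libraries were above the 3 vehicle libraries, but the exact 2-sided permutation test over samples gave p = 0.1, which is the smallest value it can give for 3 against 3. Day 1 against vehicle gave an exact p = 0.4, and day 1 against Sfrp2 an exact p = 1.

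Igf1, the postnatal ligand, overlapped its pre-MI level at day 1 and was above it at day 12. Its normalized counts were 10.4, 12.5 and 13.6 before MI, from 11, 7 and 12 reads, and 10.5 and 13.8 at day 1, from 13 and 12 reads. At day 12 they were 27.3, 35.3 and 22.4 with vehicle, from 35, 58 and 12 reads. With Sfrp2 they were 17.6, 19.5 and 21.3, from 25, 31 and 52 reads. Day 1 overlapped pre-MI, while all 6 day 12 libraries lay above both earlier groups. The means were 12.2 ± 1.64 (SD, n = 3) before MI, 12.1 ± 2.33 (SD, n = 2) at day 1, 28.3 ± 6.51 (SD, n = 3) with vehicle and 19.4 ± 1.83 (SD, n = 3) with Sfrp2. The log2 differences from pre-MI were -0.01 (SE 0.271), 1.14 (SE 0.466) and 0.64 (SE 0.279). Genes higher without overlap made up 26.3% of all genes with vehicle and 51.4% with Sfrp2, and the median over all genes with Sfrp2 was above the value of Igf1. The gap depends on the scaling: in CPM of reads outside mitochondrial genes, Igf1 was 57.9 to 71.5 before MI, 42.4 and 57.9 at day 1, 62.2 to 158.3 with vehicle and 66.3 to 84.1 with Sfrp2, so that day 12 overlaps pre-MI. Rescaled in that way, the log2 difference with Sfrp2 was 0.21, with vehicle 0.56 and at day 1 -0.36.

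Per kb of exon, Igf2 exceeded Igf1 by far before MI and by much less after it. Igf2 per kb was 20.9, 14.1 and 18.9 times Igf1 per kb before MI. After MI the ratio was 1.06 and 2.31 at day 1, 1.29, 2.12 and 3.75 with vehicle, then 2.01, 1.45 and 0.998 with Sfrp2. The change in this ratio from pre-MI follows from the choice of Igf2 and has no test.

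Reads of olfactory receptor genes were taken as a level of background, and whether the heart uses any of them was not checked. Of the olfactory receptor genes listed, 69 had an exon length, and the 95th percentile of their value per exon kb was 0 in each pre-MI library. It was 1.27 and 5.65 at day 1, 2.40, 0.601 and 20.5 with vehicle, then 1.495, 2.57 and 2.37 with Sfrp2. Igf2 per kb was 21.99, 17.9 and 26.0 before MI, so well above it. After MI, Igf2 per kb was 1.13 and 3.21 at day 1, under that level in both libraries. With vehicle it was 3.54, 7.55 and 8.495, above it in 2 of 3 libraries. With Sfrp2 it was 3.57, 2.85 and 2.14, above it in 2 of 3. H19 was above it in 3 of 3 pre-MI libraries, 0 of 2 at day 1, 1 of 3 with vehicle and 0 of 3 with Sfrp2. Igf1 was above it in 3 of 3, 0 of 2, 2 of 3 and 1 of 3, in the same order. The 69 olfactory genes held 5, 0 and 5 reads in all in the pre-MI libraries. None therefore reached there the 10 reads needed for listing, and they were listed through other libraries. A level of 0 before MI and a higher one after it follows in part from that filter. The level thus sets a different bar before and after MI. After MI it may be set too high, so a gene under it, here or below, is not shown to be background. The part of background reads in the levels after MI was not tested.

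**Figure D2:**
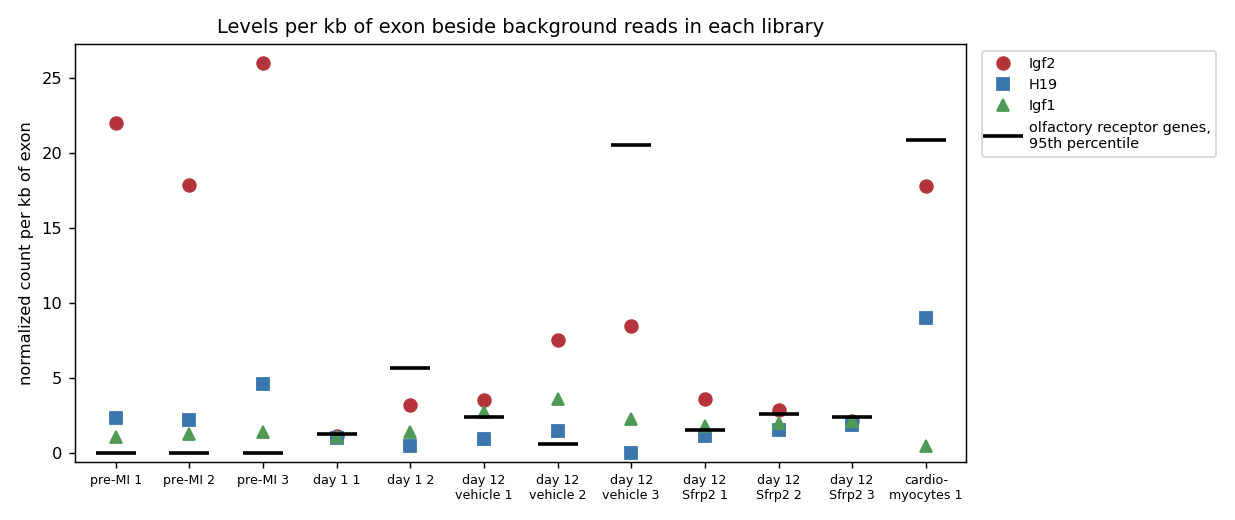
Normalized count per kb of exon (y axis, linear) of Igf2, H19 and Igf1 in each of the 12 libraries, with black bars for the 95th percentile of 69 olfactory receptor genes in that library. The bars are at 0 before MI, where Igf2 is between 17.9 and 26.0, and at 20.5 in vehicle replicate 3.

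Among the groups taken after MI, the rule used no difference, so these contrasts were tested with limma over all genes. The contrast of Sfrp2 with vehicle asks whether the protein changed the cells by day 12. Igf2 was 2.29 times higher on average with vehicle than with Sfrp2, but vehicle replicate 1 (20.2) fell below Sfrp2 replicate 1 (20.4). The log2 difference was -1.08 (SE 0.497, 95% interval -2.19 to 0.028), with a limma adjusted p of 1.00 and an exact permutation p of 0.2. H19 differed by 0.90 (SE 0.747) and overlapped, with a limma adjusted p of 1.00. Igf1 was lower in all 3 Sfrp2 libraries than in any vehicle library, as were 2.33% of all genes. Its log2 difference was -0.50 (SE 0.433, 95% interval -1.47 to 0.465), with a limma adjusted p of 1.00 and an exact permutation p of 0.1, the smallest possible. In that contrast limma called 0 of 15223 genes (0%), with 219 (1.44%) at an unadjusted p under 0.05, and edgeR and DESeq2 called 0 as well, whereas limma with array weights called 2185. None of the 3 genes passed, and the interval for Igf2 reaches from a large fall to no difference.

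Day 1 was compared with each day 12 group in the same way. Against vehicle, Igf2 was lower in both day 1 libraries than in any vehicle library, with -1.58 as its log2 difference (SE 0.706, limma adjusted p = 1.00). Igf1 was also lower without overlap, by -1.15 (SE 0.625, limma adjusted p = 1.00), and 7.97% of all genes were lower in that way. H19 overlapped and had no settled direction: its log2 difference was 0.12 (SE 0.998) although its mean was lower at day 1 (1.78 against 2.00), and the sign held in 6 of 13 alternative settings. In that contrast limma called 0 genes (0%), with 171 (1.12%) at an unadjusted p under 0.05, while edgeR called 0 and DESeq2 called 1. With array weights limma called 2250, among them Igf1 (-1.12, limma adjusted p = 0.0402, 0.0402 to 1.00 over the alternatives). Against Sfrp2, the log2 differences were -0.50 for Igf2 (limma adjusted p = 0.526), -0.78 for H19 (limma adjusted p = 0.418) and -0.65 for Igf1 (limma adjusted p = 0.303). H19 and Igf1 did not overlap there, like 27.9% of all genes that were lower, and 0.145% of genes were called. In order of mean, Igf2 ran from pre-MI through vehicle and Sfrp2 to day 1, and no test among the last 3 passed. Vehicle and Sfrp2 overlap, as do Sfrp2 and day 1. Igf1 ran from vehicle through Sfrp2 and pre-MI to day 1.

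The receptors of the ligands were next. The list of other ligands and receptors has 6 genes, of which 4 were listed. At day 1, where limma called 23.9% of all genes (21.3% higher and 2.65% lower), Igf1r fell and Insrr, a receptor of the same family, rose from 0. With Sfrp2, where 57.6% were called (48.8% higher and 8.82% lower), Igf1r and Igf2r fell and Insrr rose. With vehicle limma called 0% of genes, although 5150 (33.8%) had an unadjusted p under 0.05. There edgeR called 1907 and DESeq2 861, and leaving out vehicle replicate 2 brought the limma count to 6421. The authors' own adjusted p-values against pre-MI were under 0.05 for 3916 genes with vehicle, 312 at day 1 and 5096 with Sfrp2. That order differs from the limma order, so a list with no limma call with vehicle is not shown to be unchanged there. Insrr, with 3 reads in each day 1 library, was not above the olfactory level in every library at day 1 or with Sfrp2. It had 0 reads before MI, so its rise follows in part from the filter on listed genes. The median log2 difference of the 4 was -0.04, -0.26 and -0.34 at day 1, with vehicle and with Sfrp2.

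Igf1r, which both ligands bind, was 25.5, 34.1 and 28.4 before MI and 13.7 and 13.8 at day 1. It was 10.1, 12.2 and 13.1 with vehicle, then 8.45, 8.16 and 8.99 with Sfrp2. No later library reached the pre-MI range. The log2 difference was -1.03 at day 1 (SE 0.218, limma adjusted p = 0.0307) and -1.66 with Sfrp2 (SE 0.276, limma adjusted p = 0.00126). With vehicle it was -1.24 and did not pass (limma adjusted p = 0.105). The call with Sfrp2 held in 15 of 15 alternative settings, that at day 1 in 4 of 14. Igf2r, which clears Igf2, differed by -0.74 with Sfrp2 (limma adjusted p = 0.0399), a call that held in 6 of 15. Insr, the insulin receptor, was 19.9, 32.3 and 13.6 before MI and passed in no comparison.

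Of 13 binding proteins and their proteases, 11 were listed. At day 1, 2 rose and 1 fell, and with Sfrp2 6 rose and 2 fell, with medians of 0.80 and 1.29 beside 0.70 and 1.27 over all genes. The shares over all genes were 21.3% higher and 2.65% lower at day 1, and 48.8% and 8.82% with Sfrp2. With vehicle none passed in limma, and the median was 0.89 beside 1.00. Igfbp7, a matrix binding protein strongly made by vessels, fell in both called comparisons. It was 115.4, 87.8 and 112.5 before MI, 52.4 and 59.7 at day 1, 28.8, 74.3 and 7.48 with vehicle, then 38.0, 16.3 and 38.8 with Sfrp2. Its log2 difference was -0.89 at day 1 (limma adjusted p = 0.0318, held in 6 of 14 settings) and -1.81 with Sfrp2 (limma adjusted p = 0.00331, held in 15 of 15). Igfbp3, the main carrier in blood, differed by -1.19 with Sfrp2 (limma adjusted p = 0.0253, held in 10 of 15 and lost by DESeq2). Igfbp6, which prefers Igf2, rose there by 1.14 (limma adjusted p = 0.0236, held in 6 of 14), from 5.68, 3.59 and 7.95 to 14.8, 12.6 and 12.7. Pappa and Pappa2, proteases that cut binding proteins and free the ligands, rose with Sfrp2 by 3.39 and 3.87 (limma adjusted p = 0.00169 and 0.00037). Both were at or near 0 before MI. Pappa2 and Igfals, also among the 6 genes that rose with Sfrp2, had 0 reads in every pre-MI library. They could thus be listed only through other libraries, and their rise follows in part from that filter. Of the 6 genes only Igfbp6 was above the olfactory level in all 3 Sfrp2 libraries. Igfbp4 and Igfbp5 did not pass: Igfbp5 was 42.6, 66.3 and 49.98 before MI and 32.7, 325.7 and 24.3 with vehicle.

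**Figure D3:**
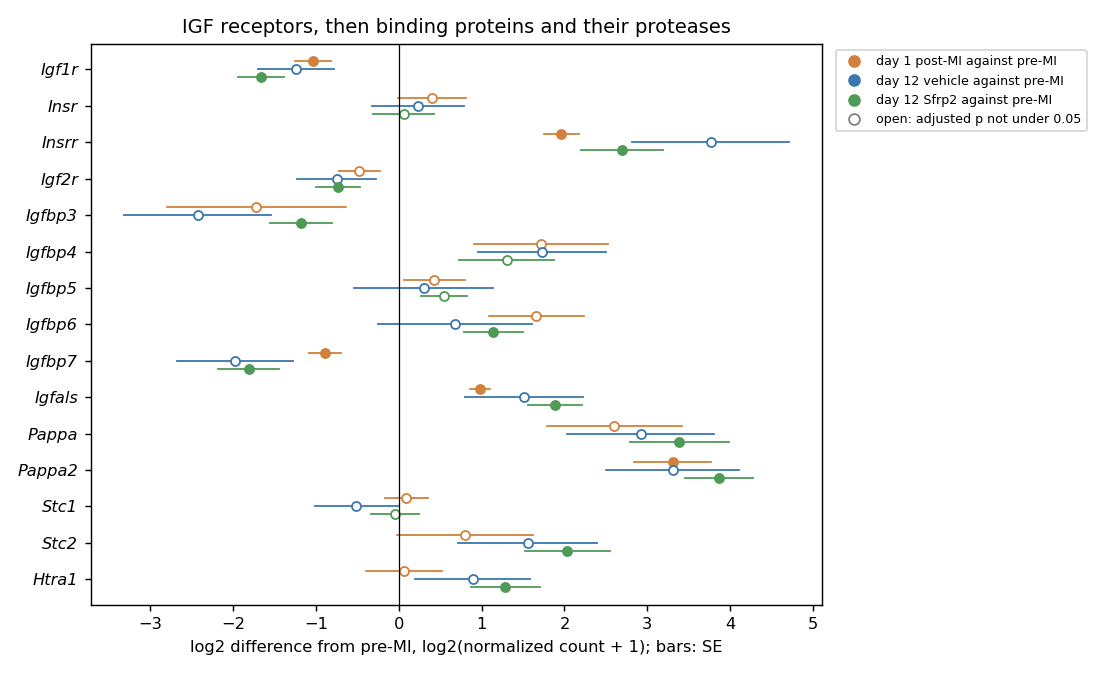
Log2 difference from pre-MI on the log2(normalized count + 1) scale (x axis) for every listed receptor, binding protein and binding-protein protease (y axis), for day 1, day 12 vehicle and day 12 Sfrp2; bars are SE and open circles have a limma adjusted p that is not under 0.05. Igf1r and Igfbp7 lie left of 0 in each comparison, Pappa2 right of 0.

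Downstream of the receptor, 30 of 31 signalling genes were listed, and the list was split. At day 1, 1 rose and 2 fell, and with Sfrp2 5 rose and 5 fell, with medians of -0.06 and -0.02 beside 0.70 and 1.27 over all genes. The shares called over all genes (21.3% higher and 2.65% lower at day 1, 48.8% and 8.82% with Sfrp2) stand beside these counts. With vehicle none passed in limma, with a median of 0.19. Over abundant genes (mean of 50 or more) the medians were -0.74 at day 1, -1.65 with vehicle and -1.83 with Sfrp2. The baseline thus depends on the level of the genes compared. Foxo1, a transcription factor restrained by Akt, fell by 1.47 on the log2 scale at day 1 (limma adjusted p = 0.0295) and by 1.89 with Sfrp2 (limma adjusted p = 0.00139). Mapk3, the kinase ERK1, was 46.4, 37.6 and 56.8 before MI and 5.63, 4.39 and 15.1 with Sfrp2, a log2 difference of -2.51 (limma adjusted p = 0.00163). Both Sfrp2 calls held in 15 of 15 settings, whereas the day 1 call of Foxo1 held in 6 of 14 and in none that left out a library. Gsk3b and Tsc2, kinase and GTPase-regulator components of the pathway, also fell with Sfrp2, by 1.37 and 1.29 on the log2 scale. The Gsk3b call held in 12 of 15 settings and the Tsc2 call in 11 of 15. Irs1, the docking protein of the receptor, rose with Sfrp2 from 2.84, 5.38 and 2.27 to 10.6, 15.1 and 8.59 (limma adjusted p = 0.0126), under the olfactory level per kb in at least 1 library. Irs2 passed in no comparison.

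The growth hormone axis, which drives Igf1 in liver and other tissues, had 7 of 8 genes listed. None passed at day 1 or with vehicle, and 2 rose with Sfrp2, where 48.8% of all genes were called higher. These were Stat5a, by 2.69 (limma adjusted p = 0.00247), and Socs2, a feedback inhibitor, by 1.55 (limma adjusted p = 0.0258). The Stat5a call held in 14 of 14 settings. That of Socs2 held in 10 of 15 and was lost with any Sfrp2 library left out. The medians were 0.05, 0.73 and 0.59. Ghr, the growth hormone receptor, was 15.1, 16.1 and 15.9 before MI, 20.2, 8.52 and 29.9 with vehicle, then 18.3, 23.2 and 16.4 with Sfrp2, and passed in none. Of 9 proteins that bind or control Igf2 and H19 RNA, 8 were listed, and 2 rose at day 1 and 5 with Sfrp2, near the 21.3% and 48.8% of all genes called higher. The medians were 1.37, 1.62 and 2.08 beside 0.70, 1.00 and 1.27. Igf2bp1 and Igf2bp2, which bind Igf2 mRNA, rose with Sfrp2 by 3.09 (limma adjusted p = 0.000922) and 1.39 (limma adjusted p = 0.0425). The Igf2bp2 call held in 7 of 14 settings. Hmga2 and Lin28b, fetal regulators, rose by 3.48 and 3.29 with Sfrp2 from 0 reads in every pre-MI library. They could thus be listed only through other libraries, and their rise follows in part from that filter. None of these 5 was above the olfactory level in every Sfrp2 library, nor were Stat5a and Socs2.

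Other imprinted genes did not move as 1 block. Of 40 on the list, 29 were listed in the tables. At day 1, 3 rose and 4 fell, with a median of 0.69 beside 0.70 over all genes. Over all genes, 21.3% were called higher and 2.65% lower at day 1. With Sfrp2, 17 rose and 3 fell, near the 48.8% and 8.82% of all genes, with a median of 1.81 beside 1.27. With vehicle none passed in limma, and the median was 1.44 beside 1.00. The summed value of the 29 was 382.8 to 440.0 before MI, 300.0 and 316.8 at day 1, 397.1 to 466.4 with vehicle and 371.1 to 463.3 with Sfrp2, so the sum at day 12 overlapped that before MI.

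The imprinted genes that fell with Igf2 were Cdkn1c, Grb10 and Gnas, at day 1 and with Sfrp2. Cdkn1c, a cyclin-dependent kinase inhibitor from a neighbouring imprinted domain of the same chromosome, was 23.6, 34.1 and 22.7 before MI. It was 3.23 and 1.15 at day 1, 2.34, 3.65 and 0 with vehicle, then 4.22, 1.25 and 4.09 with Sfrp2. Every later library was below the pre-MI ones. Its log2 differences were -3.18 (SE 0.416, limma adjusted p = 0.00744), -3.46 (SE 0.697, limma adjusted p = 0.0661) and -2.81 (SE 0.418, limma adjusted p = 0.000763). The day 1 call held in 13 of 14 settings and the Sfrp2 call in 15 of 15.

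Grb10, an adaptor that dampens signalling by the insulin and IGF1 receptors, was 69.1, 62.8 and 57.9 before MI. It was 20.97 and 19.5 at day 1, 20.2, 28.6 and 11.2 with vehicle, then 23.2, 21.3 and 31.5 with Sfrp2. Its log2 differences were -1.59 (limma adjusted p = 0.00572), -1.70 (limma adjusted p = 0.0745) and -1.30 (limma adjusted p = 0.0034). Gnas, which encodes the stimulatory G protein alpha subunit, was 205.3, 181.1 and 161.3 before MI and 51.4, 35.1 and 42.1 with Sfrp2, a log2 difference of -2.07 (limma adjusted p = 0.000397). At day 1 it was 77.4 and 60.8, a difference of -1.39 (limma adjusted p = 0.00826). The calls of both genes held in 12 of 14 settings at day 1 and 15 of 15 with Sfrp2. Copg2 fell at day 1 (limma adjusted p = 0.0307), a call that held in 4 of 14, and is named after its values were seen.

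Meg3 and Rian, maternally expressed noncoding RNAs of the Dlk1 domain, rose with Sfrp2. Meg3 was 5.68, 0 and 3.41 before MI, 16.9 and 19.5 at day 1, 44.4, 37.1 and 63.6 with vehicle, then 21.8, 57.1 and 31.5 with Sfrp2. No pre-MI library reached a later one, and the log2 difference with Sfrp2 was 3.50 (limma adjusted p = 0.00312). Meg3 did not pass at day 1 (limma adjusted p = 0.108) or with vehicle (limma adjusted p = 0.0661). Rian rose by 3.62 at day 1 and 3.70 with Sfrp2 (limma adjusted p = 0.0329 and 0.000688), and is named after its values were seen. Its day 1 call held in 6 of 14 settings and its Sfrp2 call in 15 of 15. Dlk1, a paternally expressed Notch-like ligand, was 0 in all pre-MI libraries, 3.23 and 9.18 at day 1, 12.5, 1.22 and 9.35 with vehicle, then 4.22, 16.3 and 11.4 with Sfrp2. Of the 17 imprinted genes that rose with Sfrp2, 7 had 0 reads before MI and so were listed only through other libraries. Among the 17, Dcn and Slc22a18 alone were above the olfactory level in every Sfrp2 library. Peg3, Plagl1 and Mest, which are often grouped with Igf2 in an imprinted growth network, passed in no comparison. Peg3 was 21.8, 21.5 and 19.3 before MI and 20.4, 27.0 and 27.0 with Sfrp2.

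**Figure D4:**
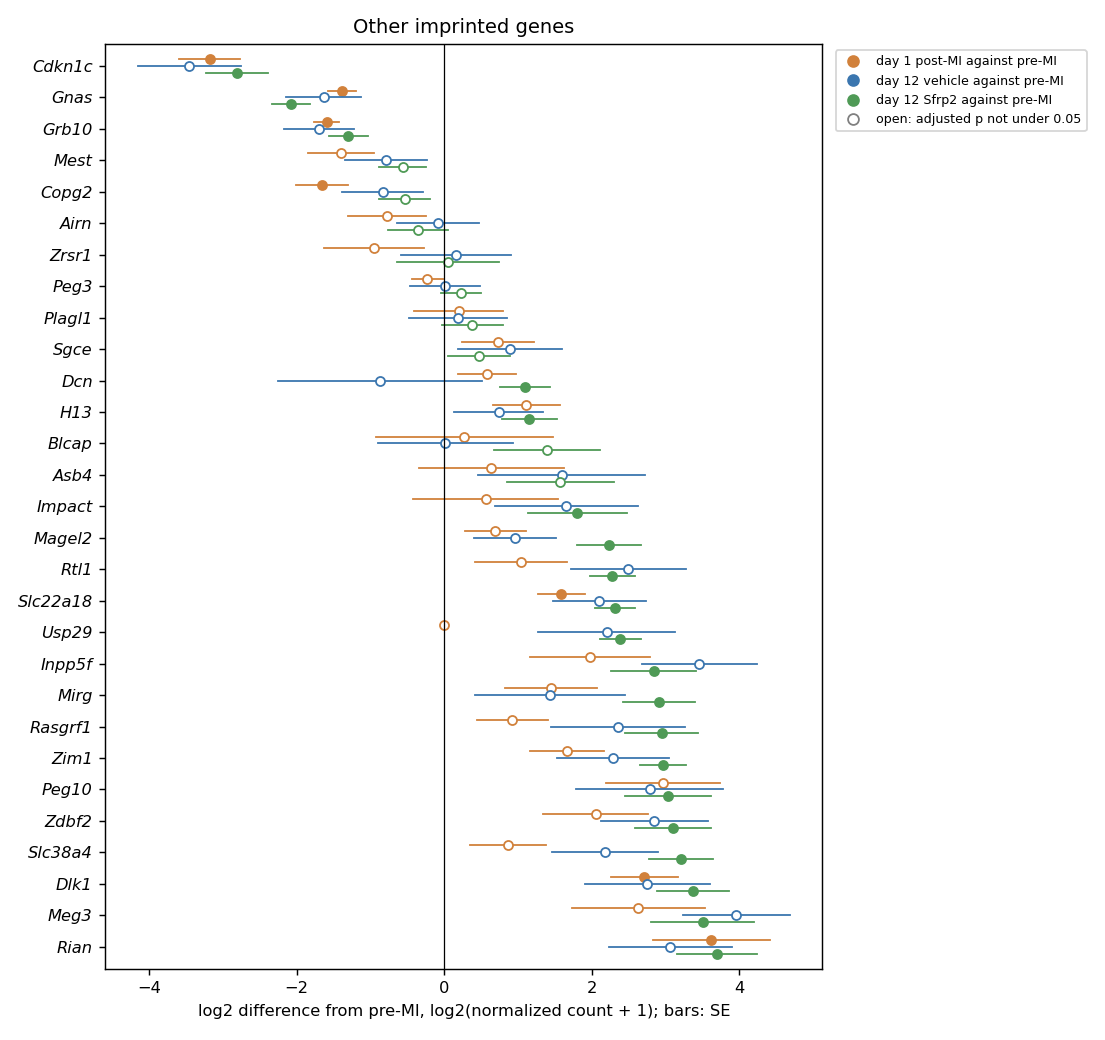
Log2 difference from pre-MI on the log2(normalized count + 1) scale (x axis) for the 29 other imprinted genes that were listed (y axis, ordered by the Sfrp2 difference), for day 1, day 12 vehicle and day 12 Sfrp2; bars are SE and open circles have a limma adjusted p that is not under 0.05. Cdkn1c, Gnas and Grb10 lie at the left end, Meg3 and Rian at the right.

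Proteins that bind or modify the control region between H19 and Igf2 were all listed, 20 of 20. At day 1 none rose and 2 fell, and with Sfrp2 3 rose and 4 fell, with medians of -0.35 and -0.17 beside 0.70 and 1.27 over all genes. Of all genes, 21.3% were called higher and 2.65% lower at day 1, and 48.8% and 8.82% with Sfrp2. With vehicle none passed in limma, with a median of -0.47. Abundant genes (mean of 50 or more) had medians of -0.74 at day 1, -1.65 with vehicle and -1.83 with Sfrp2. Whether the list lies above or below the baseline thus depends on the level of the genes compared. Ctcf, the insulator protein itself, was 14.2, 19.7 and 10.2 before MI, 9.68 and 8.03 at day 1, 9.34, 14.6 and 5.61 with vehicle, then 23.9, 11.9 and 10.2 with Sfrp2, and passed in none. Sp1, an activator that binds GC-rich promoter boxes such as those capitalised above, was 67.2, 66.3 and 73.8 before MI and 23.2, 15.7 and 27.4 with Sfrp2, a log2 difference of -1.63 (limma adjusted p = 0.00159). Its day 1 difference of -0.86 (limma adjusted p = 0.0196) held in 6 of 14 settings. Nipbl, which loads cohesin, fell by 1.02 at day 1 (limma adjusted p = 0.0329) and by 1.08 with Sfrp2 (limma adjusted p = 0.0302), calls that held in 7 of 14 and 8 of 15 settings. Among DNA methylation genes with Sfrp2, Tet2 and Tet3 fell while Tet1, Dnmt3b and Uhrf1 rose. None of the 3 that rose was above the olfactory level in every Sfrp2 library, and the Tet1 call held in 8 of 15 settings.

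Few other genes near H19 and Igf2 had enough reads before MI to be seen to fall. The annotation places 25 genes within 250 kb of the interval from H19 to Igf2, and 10 were listed, 8 of them besides the pair. Of these 8, Syt8, Nctc1 and Gm6471 had 0 reads in all pre-MI libraries and Ifitm10 and Tnnt3 had 1 read in all, so a fall of these 5 could not be detected. Ctsd, Lsp1 and Igf2as did not pass as lower, but Igf2as held only 5 reads in all before MI, so its fall could hardly be seen either. Ctsd, the lysosomal protease cathepsin D and the most abundant of them, was 40.7, 39.4 and 12.5 before MI, 68.5 and 56.2 at day 1, 20.2, 177.2 and 24.3 with vehicle, then 26.1, 15.1 and 27.0 with Sfrp2. Lsp1, a leukocyte protein, rose with Sfrp2 by 1.25 (limma adjusted p = 0.0414), a call that held in 5 of 14 settings and was lost by edgeR and DESeq2. Nctc1, a noncoding RNA near the muscle enhancer on the far side of H19, was 0 in all pre-MI libraries and 1.41, 8.79 and 4.09 with Sfrp2. Igf2as passed in no comparison.

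**Figure D5:**
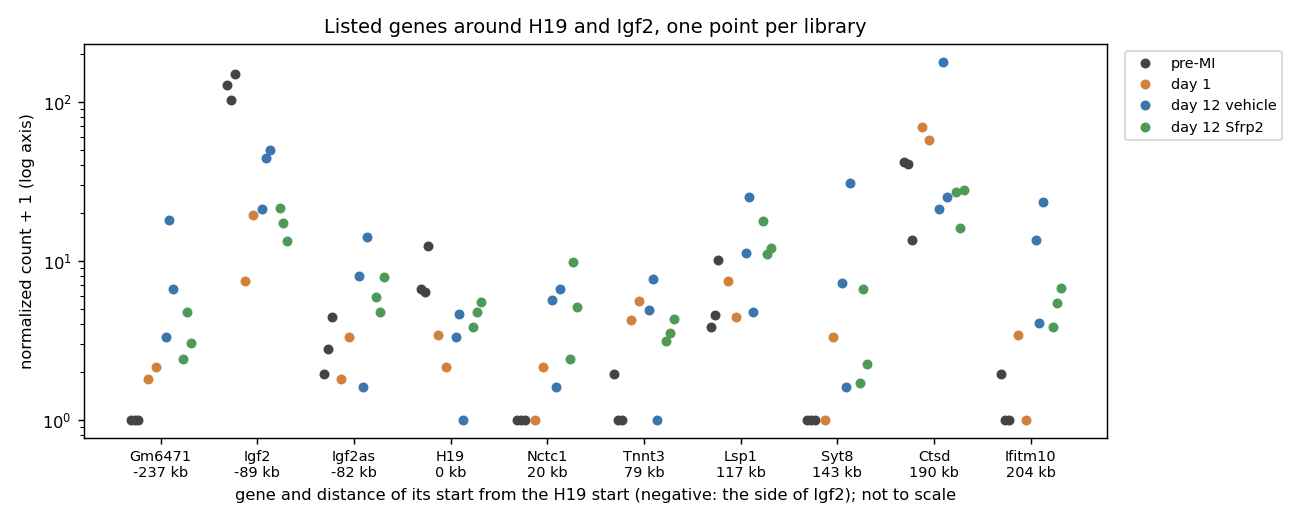
Normalized count + 1 (y axis, log) of the 10 listed genes around H19 and Igf2, 1 point per c-Kit library coloured by group, in order of the distance of each start from the H19 start (x axis, not to scale). Igf2 is the only gene of the 10 whose pre-MI libraries all exceed 100 on this axis.

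Genes whose profile over the 11 c-Kit libraries was most like each member were sought among 353 abundant genes (mean of 50 or more), by Pearson's r of log2(value + 1). For Igf2 these were Lamc1 (r = 0.873), Sema6a (0.862), Plxnd1 (0.851), Mll2 (0.834) and Ltbp4 (0.828). For H19 they were Fos (0.863), Col4a1 (0.850), Ets1 (0.831), Dusp1 (0.830) and Cd93 (0.829). For Igf1 they were Col1a1 (0.665), Lrp1 (0.616), RP23-81C12.1 (0.611), Tnfrsf11a (0.565) and Sfi1 (0.550). Igf2 and H19 had r = 0.41 with each other, Igf2 and Igf1 -0.18, and H19 and Igf1 -0.27. All points share the library, its depth and its group, so these values describe the profiles only. Lamc1, a laminin chain of basement membranes, had group means of 138.4 before MI, 37.4 at day 1, 51.8 with vehicle and 28.4 with Sfrp2. Col1a1, the fibrillar collagen chain nearest to Igf1, had means of 51.8, 52.6, 138.8 and 71.7, in the same order.

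In the cardiomyocyte library, which has no replicate and low cardiomyocyte markers, Igf2 was 101.9 from 46 reads and Igf1 4.43 from 2 reads. Igf2 there was next to the lowest pre-MI library at 102.2, but per kb it was 17.8 against an olfactory level of 20.9. In CPM of reads outside mitochondrial genes Igf2 was 249.2 there, against 582.5 to 723.0 before MI.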

How the data were processed

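RNA was isolated with a PicoPure kit and amplified as cDNA with an Ovation whole-transcriptome kit, per the labels' protocols. Per the series design text, the authors trimmed reads (Trim Galore, Cutadapt; 20 nt minimum), mapped them to GRCm38 using STAR, used reads of a single location and ran HTSeq for counts. They then applied DESeq2 to genes reaching 10 reads somewhere. Tool versions: not given in the sources used.

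Each deposited table gives, per library, a signal that is the count over that library's size factor. Deposited beside it are log2 fold changes, a Wald score and p-values from the authors. All values (100%) are whole multiples of a library's step, to 0.001, so reads could be recovered.

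Here limma 3.58.1 (R 4.3.3) with a trended variance was fitted to log2(value + 1) of the 2 groups compared, which understates changes of low genes. Adjustment was Benjamini-Hochberg over 15223 genes, with a threshold of 0.05. edgeR 4.0.16 and DESeq2 1.42.0 on the recovered reads were alternatives. The fits were also run on simulated reads, with the outcome not reported here. Single values were compared by exact 2-sided permutation. Exon lengths and positions came from a GENCODE annotation of GRCm38 (98.94% of genes matched). Named were the members, the 5 genes most like each, preset genes of each list, up to 4 more per list by smallest p, and neighbours within 250 kb. The members and lists were chosen with earlier results of these data known. Replicate numbers were not used to pair libraries: no label gives them a shared source, and no comparison with 3 pairs had every same-numbered correlation over 0.1.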

Additional observations from a re-analysis of the deposited data

Results flagged for a closer look

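H19 in the cardiomyocyte library was 22.1 normalized counts, a library outside the comparisons, and this exceeds the highest pre-MI library at 11.4. It rests on 10 reads, with an exact counting interval of 10.6 to 40.7 that overlaps that of pre-MI replicate 3 (5.45 to 20.9). In CPM of reads outside mitochondrial genes it was 54.2, against 30.7 to 55.2 before MI. Per kb of exon it was 9.002, under the olfactory level of 20.9 in that library. The sum of 12 cardiomyocyte markers there was 294.5, and the part of any of these values in the result was not tested.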

How the results depend on the processing

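Igf2 was lower than pre-MI in every alternative run, in 14 of 14 at day 1 (-4.07 to -2.69), 15 of 15 with vehicle (-2.40 to -1.42) and 15 of 15 with Sfrp2 (-3.32 to -2.62). For Sfrp2 the outlying values were -3.27 by edgeR and -3.32 with scaling outside mitochondrial genes. H19 kept its sign in 13 of 13 (-2.05 to -0.85, the last under a pseudocount of 5), 14 of 14 (-2.14 to -0.84) and 14 of 14 (-1.33 to -0.49). With a library left out, H19 ran from -2.14 (without vehicle replicate 2) to -1.04 (without vehicle replicate 3) for vehicle and from -0.97 to -0.49 for Sfrp2. A minimum mean of 10 leaves H19 out. Igf1 against pre-MI moved to -0.36 at day 1, 0.56 with vehicle and 0.21 with Sfrp2 under scaling outside mitochondrial genes, and to 0.35 by edgeR with Sfrp2. Day 1 against vehicle turned negative for H19 under a pseudocount of 5 (-0.01), edgeR (-0.15), DESeq2 (-0.27), the replicate block (-0.54) and array weights (-0.25), and ran from -0.54 (without vehicle replicate 3) to 0.57 with a library left out, with -0.22 without day 1 replicate 1. Igf1 in that contrast passed under array weights (-1.12, limma adjusted p = 0.0402; 0.0402 to 1.00 over the alternatives). Igf2 at day 1 against Sfrp2 ran from -1.19 to 0.19 with a library left out, the last without day 1 replicate 1.

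Counts of genes called moved more. Day 1 against pre-MI gave 3638, but 592 under a minimum mean of 10 (159 higher, 433 lower), 895 in a fit of all 11 libraries, 873 by DESeq2, 10 with the replicate block and 1996 to 3580 with a library left out. Vehicle against pre-MI gave 0, but 4245 in the fit of all 11, 1907 by edgeR, 861 by DESeq2, 1501 with the block, 8282 with array weights and 0 to 6421 with a library left out. Sfrp2 against pre-MI gave 8768, and 1673 under that minimum (464 higher, 1209 lower). Sfrp2 against vehicle gave 2185 with array weights. Day 1 against vehicle gave 1 by DESeq2, 2 with the block, 2250 with array weights and 0 to 1 with a library left out. Day 1 against Sfrp2 gave 22, with 40 under the minimum mean of 10, 0 in the fit of all 11, 121 by edgeR, 244 by DESeq2, 6 with scaling outside mitochondrial genes, 89 with the block, 1024 with array weights and 0 to 20 with a library left out. Where a library was left out of day 1, the lone library was assumed to vary like the other group. Correlations of same-numbered deviations lay from -0.631 to 0.236, so the block pairs nothing the labels state. The causes were not tested.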
